A study of Saccharomyces cerevisiae with 12 samples.

Results

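The PEX genes of Saccharomyces cerevisiae encode peroxins, the proteins that build peroxisomes, bring enzymes into them and set their number. The members were the genes whose symbol is PEX followed by a number and that had a probe set naming no other gene. There were 27 such genes among 5656 genes with a probe set of 1 symbol, and each had 1 probe set.

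Gene expression had been measured on one-colour Affymetrix arrays in a pair of wine yeasts, the commercial strain EC1118 and the wild-type strain M25 of the University of Sassari collection. The 4 groups were EC1118 in FSJ, EC1118 in SJ, M25 in FSJ and M25 in SJ, with 3 biological replicates and 1 array per replicate in each. SJ is a synthetic grape juice with 200 g/l glucose, organic acids and ammonium at pH 3.3. FSJ adds ergosterol and oleic acid to it, each at 15 mg/l. All 12 cultures were thus given glucose, and the amount left at harvest is not among the values used here. Every culture came from a 24 h preculture in SJ at 28°C and was harvested at 60 h. The strains are no isogenic pair. The array's probes carry a laboratory strain's sequence, so hybridisation and RNA abundance cannot be told apart in a contrast between the strains.

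Peroxisomes of this yeast hold the whole of its fatty acid β-oxidation. With oleic acid as the carbon source, the transcription factors Oaf1 and Pip2 raise the genes of β-oxidation and PEX11, and peroxisomes grow and multiply. Glucose represses that program. Enzymes enter the organelle folded: receptors bind them in the cytosol, dock at the membrane, release them inside and are drawn out again for another round. Membrane proteins take a separate route through PEX3 and PEX19.

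Signals are on the deposited linear scale. Each array's background was taken as the 25th percentile of its yeast probe sets, 16.6 to 21.7, and a probe set was tested if it lay above it on at least 3 of the 12 arrays. This held for 25 of the 27 PEX genes and 7349 of 9275 yeast probe sets. PEX9 and PEX27 lay under the background on all 12 arrays. PEX9, an import receptor for a few oleate-induced enzymes, had signals of 8.0 to 17.5, and PEX27, a PEX11 relative, of 2.4 to 17.1, so no fold change is given for either. Another 21 genes lay above the background on all 12 arrays. The remaining 4 were PEX19 on 11 arrays, PEX22 on 10, PEX4 on 9 and PEX32 on 5. Log2 signals of replicates correlated at 0.919 to 0.986, and the lowest was between EC1118 in FSJ replicates 2 and 3. EC1118 in FSJ replicate 2 also had a BioDn-3 hybridisation control signal of 432.2, against 999.7 to 1446.2 on the other 11 arrays. The median log2 signal was 7.13 to 7.17 in EC1118 in FSJ, 7.07 to 7.10 in EC1118 in SJ, 6.90 to 6.92 in M25 in FSJ and 7.08 to 7.11 in M25 in SJ, although the trimmed mean was 300.2 to 300.3 on every array.

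The first question was whether peroxisome assembly genes differed between cells given ergosterol and oleic acid and cells without them. PEX19, the cytosolic chaperone that carries new membrane proteins to the peroxisome, fell 2.77-fold with lipids in M25 and was the only PEX gene called within a strain. No PEX gene was called higher with lipids in either strain or in the mean of both. PEX11, the division protein that oleate induction is best known for, did not pass the test in either strain. All adjusted p-values come from limma with Benjamini-Hochberg adjustment over 7349 probe sets, and a gene was called at an adjusted p under 0.05.

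In M25, 1 PEX gene of 25 was called lower in FSJ, where 5.91% of all probe sets tested were lower. None was called higher, against 2.84% of all probe sets. In EC1118 0 PEX genes were called lower and 0 higher, against 1.18% and 0.667% of all probe sets. For the mean of the strains 1 was called lower and 0 higher, against 5.06% and 4.03%. In the difference between the strains' responses, EC1118 minus M25, 0 were lower and 1 was higher, against 0.0544% and 0.15%. At an unadjusted p under 0.05 in limma, 5 PEX genes were lower and 0 higher in M25, and 1 was lower and 0 higher in EC1118. In either direction 25.5% of all probe sets in M25 and 15.8% in EC1118 had such a p. The counts of calls in each direction were thus 0 or 1 in every lipid contrast, and the gene was PEX19 wherever it was 1.

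The fitted values of most members lay below 0. The median log2 fold change of FSJ over SJ in M25 was -0.24 over the 25 PEX genes, with 20 below 0, beside -0.09 over all probe sets, of which 60.0% were below 0. In EC1118 it was -0.10 with 18 below 0, beside 0.06 and 40.7%. For the mean of the strains it was -0.17 with 23 below 0, beside -0.01 and 51.8%. The size of the M25 median depended on how arrays were scaled: it was -0.08 after quantile normalization and -0.05 with arrays centred on their medians, and the median over all probe sets became 0.00 and 0.10. The same scalings left the EC1118 median at -0.18 and -0.16. It depended more on EC1118 in FSJ replicate 2, the array with the low hybridisation control. Without that array the EC1118 median was -0.01 with 13 of 25 below 0, beside 0.08 over all probe sets. Leaving out either of the other EC1118 in FSJ arrays gave -0.13 with 16 below 0 and -0.09 with 17 below 0.

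PEX19 (YDL065C) and PEX3 make up the membrane protein route. PEX19 had signals of 55.1, 65.1 and 83.6 in EC1118 in FSJ, against 55.3, 58.7 and 43.0 in EC1118 in SJ. In M25 it had 20.8, 20.4 and 25.2 in FSJ, against 54.8, 54.8 and 75.9 in SJ. The M25 in FSJ arrays were the only group apart from the other 9 arrays, and they lay close to their backgrounds of 21.7, 19.0 and 16.6, which 2 of the 3 exceeded. The EC1118 groups overlapped.

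PEX19 fell by 1.47 on the log2 scale in M25 (SE 0.21, 95% interval -1.94 to -1.01, limma adjusted p = 0.00175), and the fall passed the test under all 23 alternatives, with values of -1.57 to -1.02. In EC1118 the change was 0.37 (SE 0.21, adjusted p = 0.426). The difference between the strains' responses was 1.84 (SE 0.30, 95% interval 1.18 to 2.49, adjusted p = 0.0441), which ranked 8th of 7349 probe sets by p. That call was lost under 15 of 22 alternatives, with adjusted p-values of 0.0288 to 0.14 and values of 1.31 to 1.98. It was lost when any 1 array other than EC1118 in FSJ replicate 1 or M25 in FSJ replicate 3 was left out. The fall in the mean of the strains was 0.55 (adjusted p = 0.0409) and was lost under 14 of 22 alternatives, with adjusted p-values of 0.0192 to 0.133, among them each array left out except EC1118 in FSJ replicate 3, EC1118 in SJ replicate 3 and M25 in FSJ replicate 3.

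PEX3, the membrane anchor that PEX19 docks on, had signals of 124.3, 117.5 and 134.7 in EC1118 in FSJ, against 128.6, 97.8 and 77.5 in EC1118 in SJ. Its M25 signals were 97.8, 82.8 and 114.9 in FSJ, against 129.8, 124.0 and 123.6 in SJ. The M25 groups did not overlap and the EC1118 groups did. The log2 fold change of PEX3 was -0.37 in M25 (SE 0.18, adjusted p = 0.242) and 0.34 in EC1118 (SE 0.18, adjusted p = 0.397), and neither passed the test. Without EC1118 in SJ replicate 3, which had the lowest signal, the EC1118 value was 0.16. The difference between the strains was 0.70 (SE 0.26, unadjusted p = 0.0199, limma adjusted p = 0.254).

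**Figure D1:**
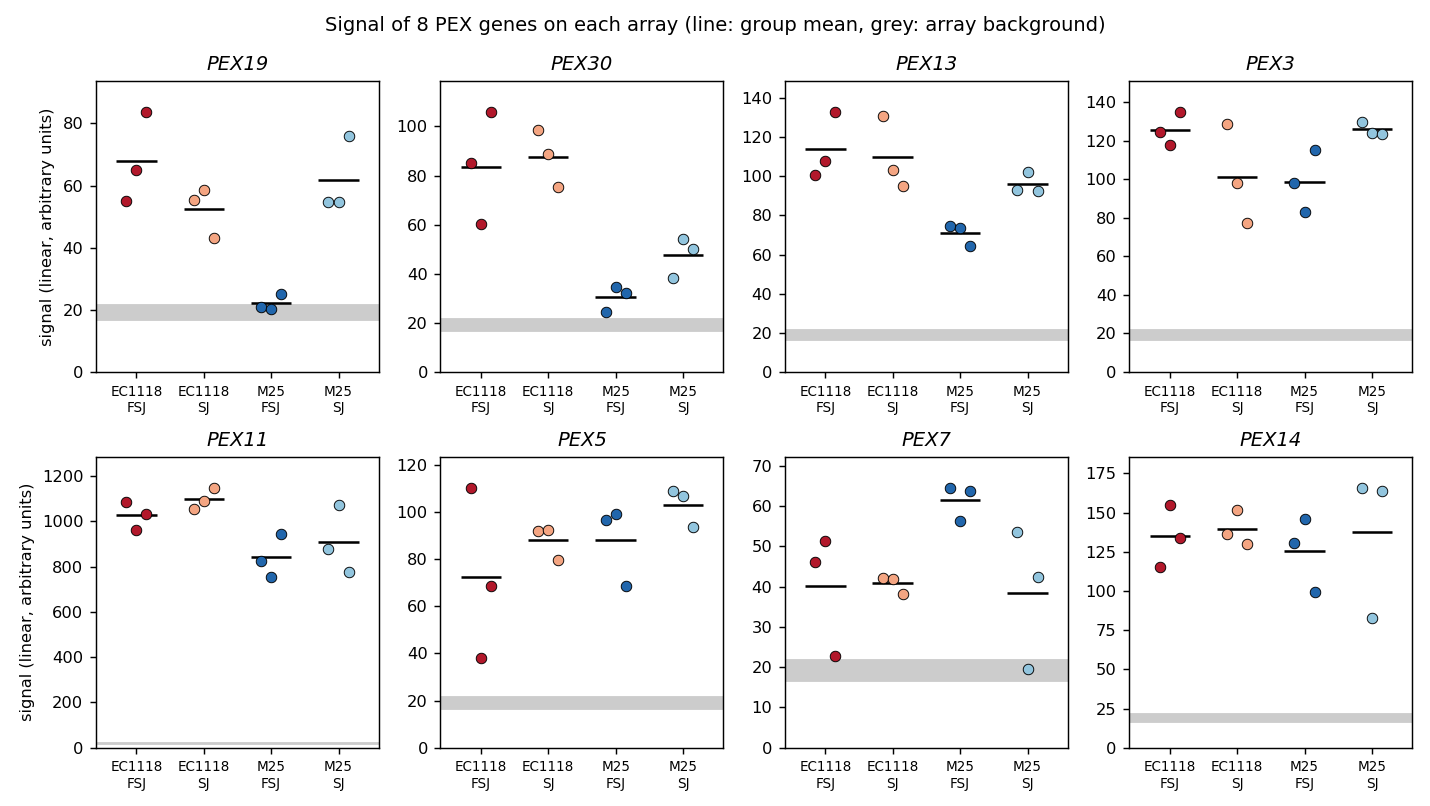
Deposited signal (linear, arbitrary units) of 8 PEX genes on each of the 12 arrays, with points for arrays, a line for each group mean and a grey band for the range of array backgrounds (16.6 to 21.7). The 3 M25 in FSJ points of PEX19, 20.4 to 25.2, lie at that band, and both M25 groups of PEX30 lie under both EC1118 groups.

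The import receptors and their partners showed no called change with lipids. PEX5 is the receptor for most matrix enzymes, which carry a short signal at their end. It had signals of 110.1, 38.2 and 68.6 in EC1118 in FSJ, against 91.9, 92.3 and 79.5 in EC1118 in SJ. M25 cultures gave 96.3, 99.2 and 68.6 in FSJ, against 108.7, 106.8 and 93.4 in SJ. The groups overlapped in both strains. The lowest EC1118 in FSJ signal came from replicate 2, the array with the low hybridisation control. The fold change (log2) of PEX5 was -0.41 in EC1118 (95% interval -1.07 to 0.25, adjusted p = 0.544) and -0.24 in M25 (95% interval -0.90 to 0.42, adjusted p = 0.666). Without EC1118 in FSJ replicate 2 the EC1118 value of PEX5 was -0.01, and without M25 in FSJ replicate 3 the M25 value was -0.07.

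PEX7, the receptor for the few enzymes with the other import signal, had signals of 46.0, 51.4 and 22.7 in EC1118 in FSJ, against 42.2, 42.0 and 38.2 in EC1118 in SJ. The signals in M25 were 64.5, 56.2 and 63.8 in FSJ, against 53.6, 19.6 and 42.4 in SJ. The M25 groups did not overlap, with FSJ the higher, although SJ replicate 2 was far under the other SJ arrays. On the log2 scale the fold change of PEX7 was 0.79 in M25 (SE 0.36, adjusted p = 0.196) and -0.11 in EC1118 (SE 0.36, adjusted p = 0.923). Without M25 in SJ replicate 2 the M25 value was 0.36. The PEX7 co-receptors PEX18 and PEX21 had signals of 23.2 to 60.5 and 99.7 to 220.7, and over the 4 receptors and co-receptors tested the log2 fold changes spanned -0.41 to -0.09 in EC1118 and -0.56 to 0.79 in M25.

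PEX13, PEX14 and PEX17 form the complex at which loaded receptors dock, and PEX8 joins it to the ubiquitin ligases from the inside. PEX13 (YLR191W) had signals of 100.5, 107.9 and 132.7 in EC1118 in FSJ, against 130.8, 103.4 and 94.8 in EC1118 in SJ. In M25 it had 74.4, 73.8 and 64.3 in FSJ, against 93.1, 102.1 and 92.5 in SJ. All 3 M25 in FSJ arrays were under the other 9 arrays. The log2 fold change with lipids was -0.44 in M25 (SE 0.16, unadjusted p = 0.0181, limma adjusted p = 0.112) and 0.06 in EC1118 (SE 0.16, adjusted p = 0.912).

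PEX14 had signals of 115.5, 155.2 and 133.8 in EC1118 in FSJ, against 136.3, 151.8 and 129.7 in EC1118 in SJ. Its M25 signals were 130.6, 146.2 and 99.2 in FSJ, against 165.8, 83.1 and 163.7 in SJ. The groups overlapped in both strains, and the fold change of -0.05 in EC1118 (95% interval -0.61 to 0.50, adjusted p = 0.949) and of -0.08 in M25 (95% interval -0.64 to 0.47, adjusted p = 0.877) both changed sign under some alternatives. PEX17 had 39.2, 32.6 and 40.8 in EC1118 in FSJ, against 52.6, 59.6 and 43.5 in EC1118 in SJ. M25 cultures gave 33.1, 34.7 and 27.8 in FSJ, against 43.9, 43.6 and 37.0 in SJ. The PEX17 groups did not overlap in either strain, with FSJ the lower, and this gene, chosen after its values were seen, had a log2 fold change of -0.42 in the mean of the strains (SE 0.13, limma adjusted p = 0.0655).

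Receptors leave the membrane after PEX4, a ubiquitin-conjugating enzyme held there by PEX22, and the ligases PEX2 and PEX10 have tagged them, and a motor anchored by PEX15 that contains PEX6 pulls them out. None of these 6 genes was called with lipids. PEX4, chosen after its values were seen, had 25.0, 23.7 and 24.3 in EC1118 in FSJ, against 36.8, 31.0 and 37.1 in EC1118 in SJ. The signals in M25 were 12.5, 17.5 and 21.4 in FSJ, against 20.2, 23.4 and 28.6 in SJ. The EC1118 groups did not overlap, while the M25 groups did and lay near the background, which 1 of 3 FSJ and 2 of 3 SJ arrays exceeded. The log2 fold change of PEX4 in the mean of the strains was -0.51 (SE 0.17, limma adjusted p = 0.0825).

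PEX15 and PEX22, chosen after their values were seen, were the members with the widest spread between replicates, and in each the spread came mainly from 1 array. PEX15 had 134.6, 43.3 and 172.0 in M25 in FSJ, against 205.1, 201.9 and 183.7 in M25 in SJ. The fold change (log2) of PEX15 in M25 was -0.97 (SE 0.38, adjusted p = 0.13) and ran from -1.37 to -0.37 over the alternatives. The weakest value, -0.37, came without M25 in FSJ replicate 2, the array at 43.3. The fall of PEX15 passed the test without M25 in FSJ replicate 3 (limma adjusted p = 0.0449), a fit that keeps the array at 43.3. PEX22 had 31.0, 1.4 and 43.3 in EC1118 in FSJ, against 25.2, 31.9 and 19.2 in EC1118 in SJ. The signal of 1.4 came from EC1118 in FSJ replicate 2, the array with the low hybridisation control. The PEX22 within-group SD was 1.38 (log2), beside a median of 0.28 over the PEX genes and 0.25 over all probe sets tested. PEX2 had signals of 552.2 to 1043.2, PEX6 of 121.2 to 162.8 and PEX10 of 46.9 to 103.5.

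PEX11 promotes the elongation and division of peroxisomes. It had signals of 1085.2, 959.9 and 1032.2 in EC1118 in FSJ, against 1053.7, 1088.8 and 1147.0 in EC1118 in SJ. In M25 it had 824.1, 755.0 and 942.5 in FSJ, against 875.9, 1073.6 and 773.9 in SJ. The groups overlapped in both strains. On the log2 scale the fold change of PEX11 was -0.10 in EC1118 (95% interval -0.39 to 0.19, adjusted p = 0.782) and -0.10 in M25 (95% interval -0.39 to 0.18, adjusted p = 0.671), and the M25 value became 0.08 with arrays centred on their medians. Its relative PEX25, and PEX34 and PEX35, which also act on peroxisome number, gave fold changes of -0.41 to 0.16 in EC1118 and -0.17 to 0.07 in M25 with PEX11 included, and none was called.

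PEX28 to PEX32 encode membrane proteins that set the number and size of peroxisomes, and PEX30 and PEX31 act in the endoplasmic reticulum, where new peroxisomal vesicles form. Over these 5 genes the log2 fold change with lipids was -0.30 to -0.08 in EC1118 and -0.64 to -0.07 in M25, all below 0 and none called. PEX30 (YLR324W) had signals of 85.0, 60.2 and 105.8 in EC1118 in FSJ, against 98.7, 88.7 and 75.4 in EC1118 in SJ. Its M25 signals were 24.6, 34.8 and 32.2 in FSJ, against 38.4, 54.1 and 50.1 in SJ. The EC1118 groups overlapped and the M25 groups did not. The fold change was -0.10 in EC1118 (SE 0.23, adjusted p = 0.892) and -0.64 in M25 (SE 0.23, unadjusted p = 0.0176, limma adjusted p = 0.11). PEX32 was under the background on all 3 M25 in FSJ arrays and above it on 2 of the 3 M25 in SJ arrays. Since the M25 in SJ arrays were not all above it, no bound on a fall is given. The fitted log2 fold change of PEX32 in M25 was -0.31 (SE 0.36, limma adjusted p = 0.645), which did not pass the test.

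**Figure D2:**
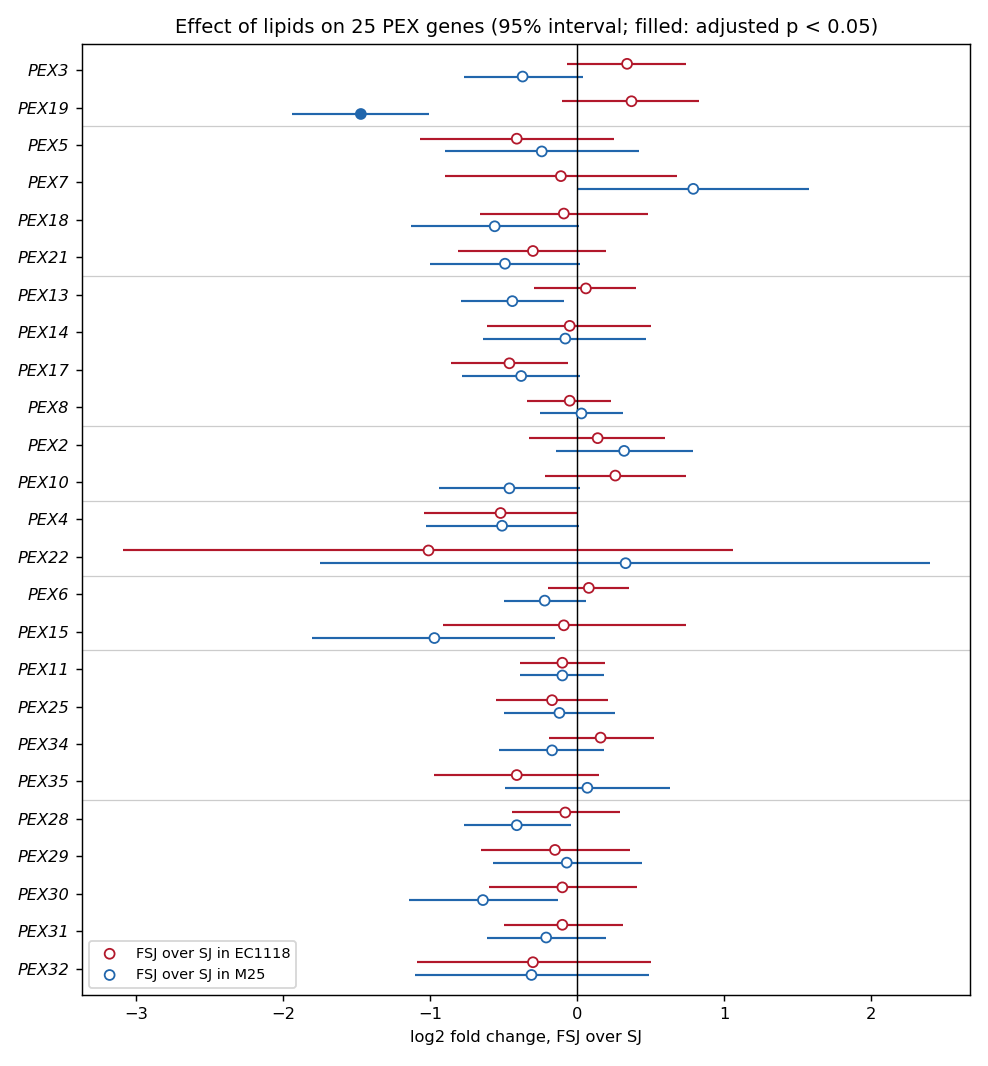
Log2 fold change of FSJ over SJ for the 25 PEX genes tested, with 95% intervals, in EC1118 (red) and M25 (blue), ordered by role from top to bottom with grey lines between roles. PEX19 in M25, at -1.47, is the only filled point (adjusted p under 0.05), and PEX22 has the widest intervals.

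Counted by whether the groups overlapped, 10 PEX genes had all 3 FSJ arrays under all 3 SJ arrays in M25, and 2 had them above, where 22.9% and 11.8% of all probe sets did. In EC1118 the counts were 2 and 0, where 6.25% and 12.3% did. The M25 count depended on the scaling of arrays. It became 2 lower and 4 higher after quantile normalization, where 15.0% and 15.6% of all probe sets separated. It also became 2 lower and 4 higher with centred arrays, where 10.8% and 23.7% did.

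**Figure D3:**
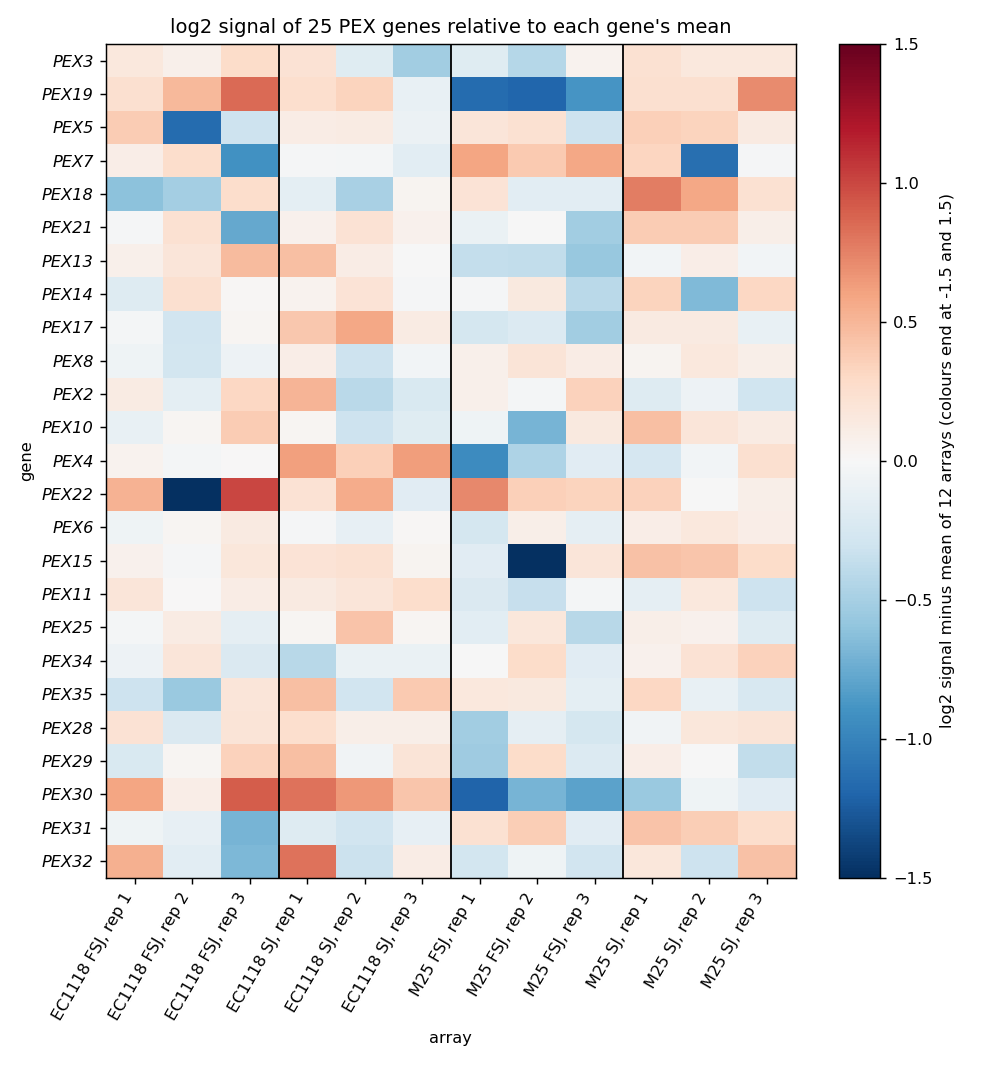
Log2 signal of the 25 PEX genes tested on each array (columns, grouped by strain and medium) minus the gene's mean over 12 arrays, from blue (lower) to red (higher), with colours ending at -1.5 and 1.5. The 3 M25 in FSJ arrays are low for PEX19, at -1.188 to -0.884, and the 6 M25 arrays are low for PEX30, at -1.196 to -0.059.

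The second question was whether the strains differed in the same medium. In FSJ, PEX19, PEX30 and PEX13 were higher in EC1118 than in M25, and in SJ PEX30 was. In FSJ 0 PEX genes were called lower and 3 higher in EC1118, where 12.4% and 22.7% of all probe sets were. In SJ 0 were called lower and 1 higher, where 10.3% and 9.46% were. At an unadjusted p under 0.05 in limma, 1 PEX gene was lower and 6 were higher in FSJ, and 3 were lower and 2 higher in SJ. In either direction 44.4% of all probe sets in FSJ and 31.7% in SJ had such a p. The shares of 25 that were called in FSJ and in SJ were below these backgrounds in each direction.

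The median log2 fold change of EC1118 over M25 was 0.12 in FSJ over the PEX genes, beside 0.13 over all probe sets, and 0.06 in SJ, beside -0.04. Its sign in FSJ depended on the scaling: it was -0.04 after quantile normalization and -0.12 with centred arrays, when the median over all probe sets was 0.00 and -0.11. The contrasts in FSJ and the lipid contrasts share the FSJ arrays, so they are no separate evidence on a gene.

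PEX30 averaged 83.7 ± 22.8 in EC1118 in FSJ and 30.5 ± 5.30 in M25 in FSJ (SD, n = 3 each), and 87.6 ± 11.7 in EC1118 in SJ and 47.5 ± 8.16 in M25 in SJ (SD, n = 3 each). The lowest EC1118 signal, 60.2, was above the highest M25 signal, 54.1, so the strains did not overlap over the 2 media. PEX30 was higher in EC1118 by 1.43 on the log2 scale in FSJ (2.70-fold, SE 0.23, adjusted p = 0.000616) and by 0.89 in SJ (1.85-fold, SE 0.23, adjusted p = 0.018). The FSJ call passed the test under all 23 alternatives. The SJ call was lost without EC1118 in SJ replicate 1 (adjusted p = 0.0686) or 2 (0.0535) or without M25 in SJ replicate 1 (0.0748), and kept under the other 20.

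PEX19 averaged 67.9 ± 14.5 in EC1118 in FSJ and 22.1 ± 2.66 in M25 in FSJ (SD, n = 3 each), and 52.3 ± 8.26 in EC1118 in SJ and 61.8 ± 12.2 in M25 in SJ (SD, n = 3 each). The strains were apart in FSJ and overlapped in SJ. The log2 fold change of EC1118 over M25 was 1.60 in FSJ (3.04-fold, SE 0.21, adjusted p = 0.000154), which passed the test under all 23 alternatives, and -0.24 in SJ (SE 0.21, adjusted p = 0.509). PEX13 averaged 114 ± 16.9 in EC1118 in FSJ and 70.8 ± 5.67 in M25 in FSJ (SD, n = 3 each). It was higher in EC1118 in FSJ by 0.68 on the log2 scale (1.60-fold, SE 0.16, adjusted p = 0.00659). This call was lost after quantile normalization (0.0521) and with centred arrays (0.0522), where the value was 0.44 and 0.43. In SJ the PEX13 value was 0.18 (SE 0.16, adjusted p = 0.496).

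PEX31, a relative of PEX30, had signals of 152.6, 146.4 and 98.4 in EC1118 in FSJ, against 187.2, 206.9 and 142.5 in M25 in FSJ. In SJ it had 140.1, 131.3 and 146.3 in EC1118, against 214.1, 206.4 and 192.2 in M25. The strains did not overlap in SJ, with EC1118 the lower, and overlapped in FSJ. This gene, chosen after its values were seen, had a log2 fold change of -0.55 in SJ (SE 0.19, adjusted p = 0.0573) and -0.44 in FSJ (SE 0.19, adjusted p = 0.0863). The SJ value passed the test under 5 of 23 alternatives.

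**Figure D4:**
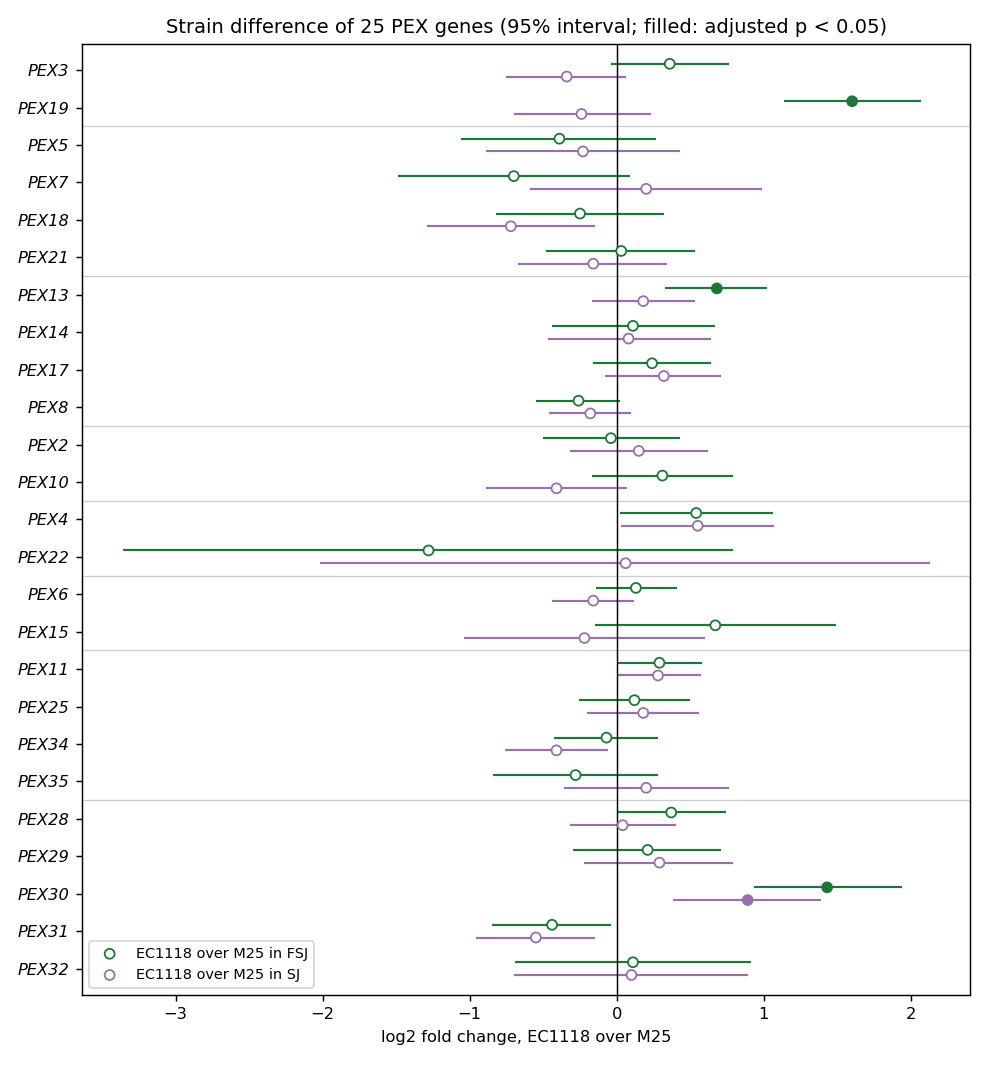
Log2 fold change of EC1118 over M25 for the 25 PEX genes tested, with 95% intervals, in FSJ (green) and SJ (purple), in the same order of roles. PEX19 (1.60), PEX30 (1.43) and PEX13 (0.68) are filled in FSJ and PEX30 (0.89) in SJ, and PEX19 in SJ lies at -0.24.

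Genes that act with the peroxins were taken from 5 lists of 47 genes in all, of which 46 were tested. The 4 oleate regulators, OAF1, PIP2, ADR1 and OAF3, had 0 calls with lipids in any of the lipid contrasts. At an unadjusted p under 0.05 in limma, OAF1 was lower in M25, with 89.9, 113.2 and 110.4 in FSJ, against 175.8, 155.3 and 144.2 in SJ. Between the strains PIP2 was called higher in EC1118 in FSJ, by 0.39 (adjusted p = 0.047), and ADR1, an activator needed off glucose, in SJ, by 0.83 (adjusted p = 0.0403). These calls were lost under 16 and 8 of 23 alternatives.

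Over all 46 genes, 5 were called lower and 3 higher with lipids in M25, 0 and 0 in EC1118, and 0 and 0 in the difference between the strains. Of all probe sets, 5.91% were lower and 2.84% higher in M25, and 1.18% and 0.667% in EC1118. The M25 counts were 2 lower and 2 higher with quantile normalization, and 1 lower and 6 higher with centred arrays. For the mean of the strains 4 of the 46 were lower and 3 higher, against 5.06% and 4.03% of all probe sets. STR3, a cystathionine β-lyase, had 2924.7, 2780.3 and 2600.5 in M25 in FSJ, against 1106.1, 1032.1 and 1027.0 in M25 in SJ. It rose by 1.39 on the log2 scale (adjusted p = 0.00142) and kept the call under all 23 alternatives. GTO1, a glutathione transferase, rose by 1.18 (adjusted p = 0.0187) and AAT2, an aspartate aminotransferase, by 0.45 (adjusted p = 0.0166). The calls of GTO1 and AAT2 were each lost under 4 of 23 alternatives.

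ATG11, which recruits cargo such as peroxisomes for autophagy, had 50.5, 59.8 and 51.5 in M25 in FSJ, against 107.1, 95.2 and 93.9 in M25 in SJ. It fell by 0.87 (adjusted p = 0.00759) and kept the call under all 23 alternatives, with values of -0.95 to -0.69. MDV1, an adaptor of the fission machinery, fell by 0.82 (adjusted p = 0.0375), the carnitine acetyltransferase CAT2 by 0.68 (adjusted p = 0.0424) and the acyl-CoA thioesterase TES1 by 0.42 (adjusted p = 0.037), the last pair named after their values were seen. PXA2, a subunit of the fatty acyl-CoA importer, was under the background on all 3 M25 in FSJ arrays, at 14.2, 15.1 and 13.8, against 38.5, 23.1 and 25.1 in M25 in SJ. The fitted log2 fold change of PXA2 was -0.97 (limma adjusted p = 0.0414). With signals raised to the background it was -0.57 (limma adjusted p = 0.166). That is a fall of at least 1.48-fold, which did not pass the test. The calls of MDV1, CAT2, TES1 and PXA2 were lost under 13, 12, 12 and 15 of 23 alternatives, centred arrays among them for each.

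Between the strains 3 of the 46 genes were called lower and 17 higher in EC1118 in FSJ, and 2 lower and 8 higher in SJ. Of all probe sets, 12.4% were lower and 22.7% higher in FSJ, and 10.3% and 9.46% in SJ. Of the 17 genes called higher in FSJ, 9 lost the call with quantile normalization and 10 with centred arrays. FAA2, the medium-chain acyl-CoA synthetase of peroxisomes, was higher in EC1118 in FSJ by 1.49 (adjusted p = 3.92e-05) and in SJ by 1.32 (adjusted p = 0.000149). POT1, the thiolase of β-oxidation, was higher by 0.67 in FSJ (adjusted p = 0.00846) and by 1.17 in SJ (adjusted p = 0.000396). For STR3 the log2 fold change of EC1118 over M25 was -2.54 in FSJ (adjusted p = 2.73e-06). MSP1, an ATPase that extracts mislocalised membrane proteins, was higher in EC1118 by 0.81 in FSJ (adjusted p = 0.002) and by 0.51 in SJ (adjusted p = 0.039). The POT1 call in FSJ was lost under 4 of 23 alternatives, both scalings among them, and the MSP1 call in SJ under 8.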

How the data were processed

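RNA of 12 cultures, 3 per group, was measured on 1 array each. The authors deposited intensity on a linear scale, 1 value per probe set, from the MAS5 tool according to the submitters' processing notes. Neither the MAS5 version nor a scaling target is given in the sources used here. The deposited scale was kept. Gene symbols came from GEO's platform annotation: of 9275 yeast probe sets, after 60 control probe sets were left out, 6504 had 1 symbol, 328 several and 2443 none. No sequence was used here.

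Before log2, signals below 1 were raised to 1. R 4.3.3 with limma 3.58.1 fitted a mean per group over all 12 arrays (lmFit, then eBayes with its trend option). Benjamini-Hochberg adjustment ran over 7349 probe sets, and the threshold was 0.05. The background is a percentile of each array, not a detection call. The number of arrays limits the precision: the median SE of a PEX gene was 0.22 within a strain and 0.31 in the difference between strains, on the log2 scale. Arrays share a mean, so signals are relative to total labelled RNA. The fold given for PXA2, which had no M25 in FSJ array over the background, is a bound. PEX32, also with none there, has a fitted value only. The fits were also run on simulated data with independent normal noise. Those data held no differences in array scaling and no outlying arrays, so the run does not bear on these limits.

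Members, lists and tests were chosen with earlier results of these data known. Full values are given for PEX genes called in any contrast and for PEX3, PEX5, PEX7, PEX11, PEX14 and PEX19. From each list up to 3 genes with the smallest p in a contrast could be named, and array values are given for only some of them. Others are said to have been chosen after their values were seen. Same-numbered arrays of different groups had correlations of -0.16 to 0.137 in their deviations from group means, over 0.1 in 2 of 18 pairs, so replicate numbers were not treated as pairs. At most 1.29% of values were identical between replicates. Alternatives changed the scaling (quantile normalization, or arrays centred on medians), low signals (log2(signal + 16), or raising to background), the filter (none, or 6 arrays), the model (replicate block, eBayes without trend, fits of only the groups compared), the probe sets (their mean per gene) or the arrays (each left out). Leaving out both FSJ arrays numbered 2 was chosen after seeing the data.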

Additional observations from a re-analysis of the deposited data

Results flagged for a closer look

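The response of PEX19 to lipids differed between the strains by a test of the difference itself. EC1118 minus M25 in the log2 fold change of FSJ over SJ was 1.84 (limma adjusted p = 0.0441), with 0.37 in EC1118 and -1.47 in M25. The EC1118 groups overlapped, and all 3 M25 in FSJ arrays were under all 3 M25 in SJ arrays. The M25 in FSJ signals, 20.4 to 25.2, lay near the array backgrounds of 16.6 to 21.7. The call on the difference was lost under 15 of 22 alternatives.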

How the results depend on the processing

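The PEX19 fall in M25 and the higher PEX19 and PEX30 of EC1118 in FSJ kept their direction and passed the test under all 23 alternatives. The count of PEX genes lower in the mean of the strains, 1 in the report, was 0 with centred arrays, log2(signal + 16), no filter, the replicate block or both FSJ arrays numbered 2 left out, 2 with signals raised to the background (PEX17 joined) and 3 without the intensity trend (PEX17 and PEX4 joined). The count higher in the difference between the strains, also 1, was 0 with quantile normalization, log2(signal + 16), no filter, the replicate block and both FSJ arrays numbered 2 left out. With no filter more probe sets were tested and with arrays left out there were fewer samples; otherwise the cause was not tested. In FSJ, 2 PEX genes, PEX8 and PEX31, were lower in EC1118 with quantile normalization and with centred arrays. In SJ, 1 was lower with the replicate block or without both FSJ arrays numbered 2, 2 were lower with only the groups compared, and 2 were higher with raised signals (PEX4 joined). With each array left out in turn, the counts ran from 0 to 1 lower for the mean, 1 to 2 lower in M25 (PEX15 joined without M25 in FSJ replicate 3), 0 to 1 higher in the difference, 0 to 1 lower and 3 to 5 higher between the strains in FSJ (PEX4 and PEX15 joined and PEX31 was lower without M25 in FSJ replicate 3), and 0 to 2 lower and 0 to 1 higher in SJ. Under the replicate block PEX19 had adjusted p-values of 0.104 in the difference and 0.0556 in the mean; the numbers do not pair the arrays, and 3 of 12 arrays correlated best with their own number.

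Values that changed sign were uncalled in each case. PEX3 in the mean was 0.03 with quantile normalization, 0.05 with centred arrays, 0.07 without both FSJ arrays numbered 2 and -0.10 to 0.08 with an array left out. PEX13 in EC1118 was -0.03 and -0.01 under those scalings and -0.06 to 0.19 with an array left out. PEX14 in M25 was 0.09 and 0.10 under those scalings. With an array left out it was -0.41 to 0.09 in M25, -0.16 to 0.05 in EC1118 and -0.23 to 0.02 in the mean. PEX11 in M25 was 0.08 with centred arrays and -0.21 to 0.02 with an array left out. PEX30 in EC1118 was 0.12 without both FSJ arrays numbered 2 and -0.28 to 0.12 with an array left out, and PEX7 in EC1118 was -0.33 to 0.25.

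Over all probe sets the split of calls also moved with scaling. In M25 434 were lower and 209 higher with lipids, 246 and 185 after quantile normalization, and 240 and 633 with centred arrays. For the mean of the strains 372 and 296 became 299 and 506 with centred arrays, and in EC1118 87 and 49 became 106 and 36. In the difference 4 and 11 became 4 and 5 after quantile normalization, 51 and 9 with centred arrays, and 1 and 3 under the replicate block. Between the strains in FSJ 914 and 1665 became 1138 and 1172, and 1595 and 942. Signals near the background limit PEX4, PEX19 in M25 in FSJ, PEX22 and PEX32.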
